A study of Mus musculus with 3 samples.

Results

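The fatty acid binding protein genes Fabp7, Fabp5, Fabp4, Fabp3 and Pmp2 were followed across the cell classes of the mouse lumbar dorsal root ganglion (DRG). These are 5 of the 31053 genes in the count matrices, chosen by name and not by a rule on their values, though earlier results of these data were known. The 3 libraries held single cells of L3 and L4 DRGs from untreated male C57BL/6J mice (naïve) and from mice 7 or 14 days after spared nerve injury (SNI) of both hindlegs, all labelled as 13 weeks old. Each library pooled 8 DRGs of 2 mice, so a condition was 1 sample, and no test between conditions was possible. SNI cuts some branches of the sciatic nerve and spares another, so L3 and L4 ganglia hold injured and uninjured neurons side by side.

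Fatty acid binding proteins are small cytosolic proteins that carry long-chain fatty acids and related lipids between membranes, enzymes and nuclear receptors. Most cell types use a preferred member. Fabp7 (brain type) is known from radial glia and astrocytes and is a common marker of satellite glial cells (SGCs), the glia that wrap each sensory neuron soma. Fabp5 (epidermal type) is broadly expressed and also found in neurons and glia, Fabp4 (adipocyte type) in fat, capillary endothelium and macrophages, and Fabp3 (heart type) in muscle and in neurons. Pmp2 encodes myelin protein P2, a member of the family found in peripheral myelin.

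Fabp7 lies on chromosome 10, from 57784881 to 57788450 on the plus strand of GRCm38, and Fabp3 on chromosome 4, from 130308595 to 130315463 on the plus strand. The other members lie on chromosome 3, Fabp5 from 10012548 to 10016607 on the plus strand, Pmp2 from 10179851 to 10183929 and Fabp4 from 10204088 to 10208576 on the minus strand. Fabp5, Pmp2, Fabp9, Fabp4 and Fabp12 share a stretch of 288636 bases there. The first coding transcript of each member has 4 exons in GENCODE vM21.

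The sequence upstream of Fabp7 is shown because Fabp7 was the member with the steepest difference between cell classes. The 150 bases before its annotated start, chr10:57784731-57784880 on the plus strand (RefSeq promoter table, GRCm38.p6), are given. Capitals mark letters matching TGACCT, the reverse complement of the nuclear receptor half-site AGGTCA, and ATTGG, the reverse complement of CCAAT.
Fabp7 upstream: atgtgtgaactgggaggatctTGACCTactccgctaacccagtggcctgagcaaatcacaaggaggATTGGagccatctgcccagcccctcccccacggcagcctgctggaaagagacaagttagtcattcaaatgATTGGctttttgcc
On either strand of the 250 bases before the table's start, AGGTCA occurred in 14.0% of all 32851 promoters and CCAAT in 33.8%. TGGGAA, the letters bound by RBPJ, occurred once in the searched Fabp7 window and in 21.6% of promoters. TATAAA did not occur there and occurred in 12.4% of promoters. A match is a description of the letters and not of a bound site.

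Cells with 500 or more genes and a mitochondrial share of UMIs (unique molecular identifiers, here counted mRNA molecules) up to 20% numbered 3123 in the naïve library, 2650 at day 7 and 3799 at day 14, after 90 called doublets were left out. Their median depth was 3059, 3972 and 4174 UMIs. Markers without any member of the family gave 8483 of the 9572 cells a class, and the classes are called by the name of their markers with the ending -like. The libraries shared between 1 and 6 barcode sequences by pairs, and in no pair of these did the counts correlate above 0.95. The neuron-like cells of day 7 stood apart. Their median depth was 2142 UMIs against 64968.5 in naïve and 80460 at day 14, and a cluster of 145 cells with a median of 1602 UMIs held 144 cells of day 7. Neuron values are therefore also given for cells with at least 10000 UMIs, a limit chosen after seeing the data.

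In the 9572 cells, Fabp7 gave 133656 UMIs, Fabp5 20709, Fabp3 1348, Fabp4 160 and Pmp2 23. Levels are CPM, a gene's UMIs in a class scaled to the same total of UMIs for every class and library, with exact 95% intervals that cover counting error only. They take neither the mice nor the clumping of UMIs in single cells into account, and the true spread is wider.

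**Figure D1:**
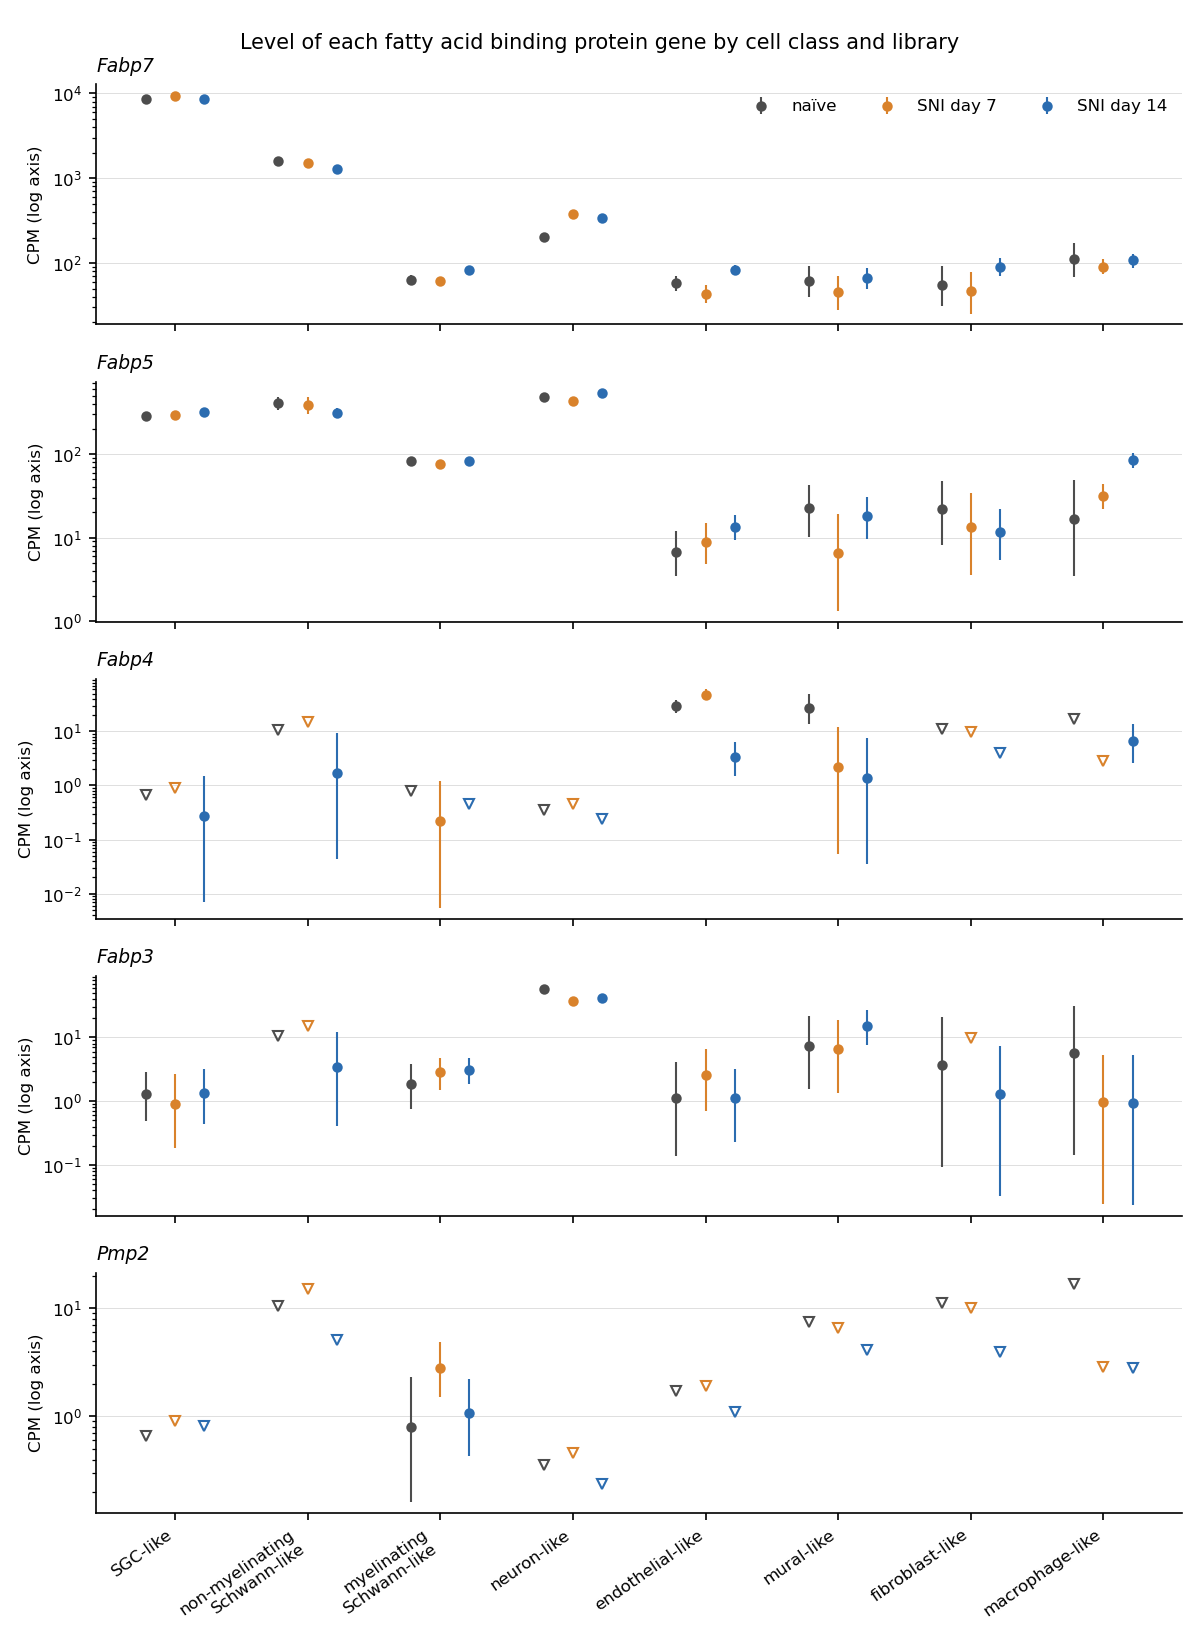
CPM (log axis) of each gene in 8 cell classes of the naïve, SNI day 7 and SNI day 14 libraries. Points are the level over all UMIs of a class, bars its 95% Poisson interval, and open triangles the upper limit that a count of 0 allows. Fabp7 stood at 8509 to 9376 CPM in SGC-like cells and at 43.0 to 113 CPM in myelinating Schwann-like, vascular, fibroblast-like and macrophage-like cells.

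Fabp7 was highest in SGC-like cells in every library, followed by non-myelinating Schwann-like cells and then neuron-like cells. In SGC-like cells its level was 8628 CPM in naïve (95% interval 8543 to 8713, 641 cells), 9376 CPM at day 7 (9272 to 9481, 354 cells) and 8509 CPM at day 14 (8415 to 8604, 407 cells). At least 1 Fabp7 UMI was found in 95.8%, 96.9% and 97.8% of these cells, and in 94.7%, 93.6% and 94.2% once cells were thinned to 2000 UMIs. Non-myelinating Schwann-like cells had 1601, 1494 and 1270 CPM in naïve, day 7 and day 14. A UMI was found in 60.8%, 67.1% and 67.6% of 148, 79 and 170 cells. Of their Fabp7 UMIs, 1 cell held 79 of 457 in naïve, 94 of 298 at day 7 and 61 of 744 at day 14. The median cell had 576, 479 and 553 CPM. The pooled levels of SGC-like and non-myelinating Schwann-like cells did not overlap over the 3 libraries.

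The difference between glial classes was tested over the 3 libraries with edgeR on summed counts, with the library as a block. Fabp7 was higher in SGC-like than in myelinating Schwann-like cells by 6.92 ± 0.22 (log2, SE, adjusted p = 1.19e-23, edgeR), where 47.7% of 12929 tested genes were called and 3 of the 4 tested members, Pmp2 being too low for the test. Against non-myelinating Schwann-like cells Fabp7 was higher by 2.89 ± 0.18 (log2, SE, adjusted p = 3.25e-14, edgeR), the only member called where 19.6% of genes were. Myelinating Schwann-like cells had less Fabp7 than non-myelinating ones by -4.03 ± 0.20 (log2, SE, adjusted p = 7.15e-18, edgeR), with 2 of 4 members and 31.0% of genes called. Each of these held its direction in 3 of 3 libraries.

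Within SGC-like cells Fabp7 was uneven. Single cells ran from 614 CPM at the 10th percentile through a median of 5742 to 17241 CPM at the 90th percentile in naïve, and from 740 through 5192 to 19260 and from 659 through 4852 to 17170 at days 7 and 14. Between 12.4% and 14.7% of the SGC-like cells of a library were under 1000 CPM, and 30.5% to 35.6% reached 10000 CPM or more. Clusters formed without the members of the family divided the class along this spread. The SGC-like cells of a cluster led by Acsbg1, Fbln5 and Apoe had 13745, 14854 and 13668 CPM in naïve, day 7 and day 14, and those of a cluster led by Ednrb and Cdh19 had 5704, 5098 and 5258 CPM. The lowest were SGC-like cells of a cluster led by Egr3, Pou3f1 and Ednrb, with 1423, 1499 and 1043 CPM. These were close to the pooled level of non-myelinating Schwann-like cells, whose median cell was lower. The cluster led by Isg15 and Cxcl10, genes induced by interferon, was mostly naïve (83, 9 and 10 cells), and its naïve SGC-like cells had 8745 CPM. Scored by 6 interferon genes, SGC-like cells with at least 3 of them had 8715, 9342 and 8810 CPM and those with fewer had 8609, 9381 and 8478 CPM. Their order differed between libraries.

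**Figure D2:**
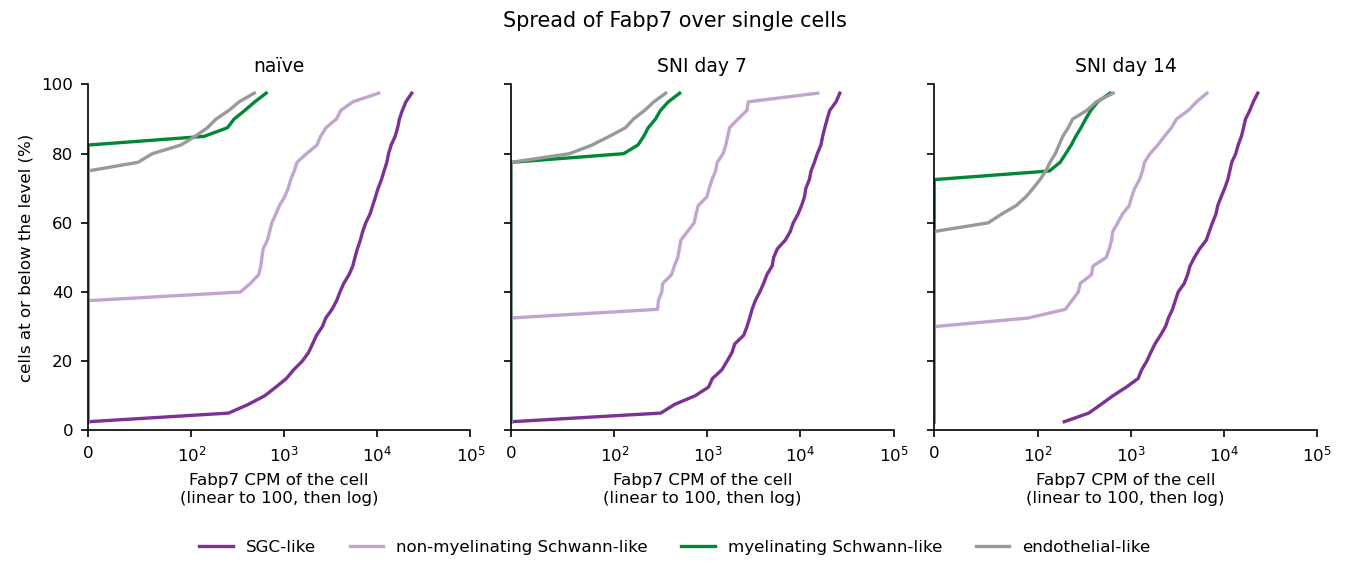
Share of cells (vertical, %) at or below a Fabp7 level (horizontal, CPM of the cell, linear up to 100 and logarithmic above) in 4 cell classes of each library. SGC-like cells spread over more than an order of magnitude around medians of 5742, 5192 and 4852 CPM, and most myelinating Schwann-like and endothelial-like cells had no UMI.

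Within the gate, Fabp7 in SGC-like cells stood close to its naïve level at both days. The day 7 level was 1.09 times naïve (1.07 to 1.10) and the day 14 level 0.986 times (0.972 to 1.001). Over all cells of a cluster, gated or not, the Ednrb and Cdh19 cluster fell from 5857 to 4739 and 4592 CPM. The Egr3 cluster had 1315, 1341 and 750 CPM and the Acsbg1 cluster 13554, 14521 and 13280 CPM. Of the Ednrb and Cdh19 cluster, 238 of 358, 145 of 278 and 195 of 485 cells passed the gate. The part of the gate in the ratio was not tested. Neither Fabp7 nor Fabp5 passed 2-fold in SGC-like cells, where 2.29% of genes did at day 7 and 3.15% at day 14. Most SGC-like cells carried between 10 and 20% mitochondrial UMIs, and in cells of this range Fabp7 was 9328, 9231 and 8573 CPM. SGC-like cells above 20%, which the filter removed, had 9588, 9388 and 9107 CPM. Under 10% there were 104 cells in naïve at 4763 CPM but only 12 at day 7 and 5 at day 14, too few to set beside each other. In non-myelinating Schwann-like cells the pooled day 14 level was 0.793 times naïve (0.705 to 0.893), with median cells at 553 and 576 CPM. Of the 148, 79 and 170 cells, 43, 32 and 69 scored less than 2 times their next class, most often SGC.

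**Figure D3:**
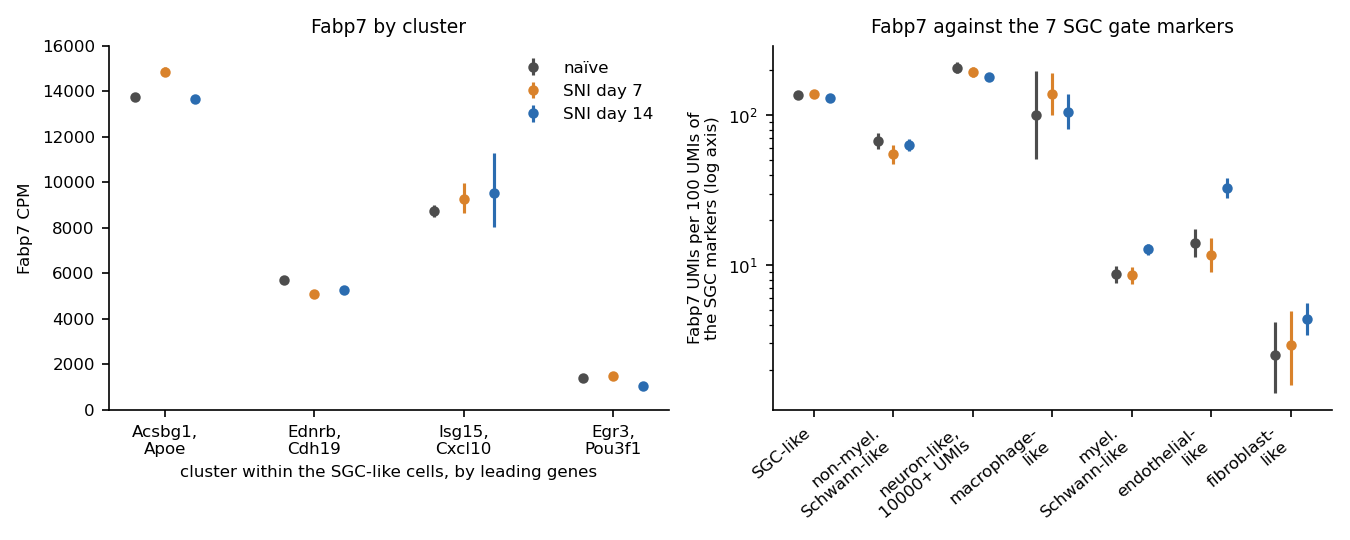
Left, Fabp7 CPM in the SGC-like cells of 4 clusters named by 2 leading genes each; right, Fabp7 UMIs per 100 UMIs of the 7 markers of the SGC gate in 7 cell classes (log axis). Points are libraries and bars 95% intervals; the clusters kept their order in each library, and neuron-like cells with at least 10000 UMIs had 180 to 208 Fabp7 UMIs per 100 marker UMIs against 130 to 138 in SGC-like cells.

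A low level of Fabp7 was present in every class. Myelinating Schwann-like cells had 63.0, 61.6 and 82.9 CPM in naïve, day 7 and day 14, endothelial-like cells 57.9, 43.0 and 82.3, fibroblast-like cells 55.4, 46.4 and 90.04, mural-like cells (pericytes and smooth muscle) 62.2, 45.4 and 66.1, and macrophage-like cells 113, 90.9 and 107 CPM. The intervals of these classes overlapped in naïve, and macrophage-like cells held the highest naïve value. Free RNA, released by broken cells and captured with any cell, gives such a level, and classes not known for Fabp7 serve as its measure here. Between 14.3% and 41.9% of the cells of these classes had a Fabp7 UMI, 6.94% to 23.0% after thinning to 2000 UMIs. In myelinating Schwann-like cells the day 14 level was 1.31 times naïve (1.13 to 1.54) and in endothelial-like cells 1.42 times (1.12 to 1.82), and the 3 members with enough UMIs in myelinating Schwann-like cells stayed under 2-fold, where 2.09% of genes passed at day 7 and 2.93% at day 14. Barcodes with under 500 genes had 293, 428 and 546 Fabp7 CPM.

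In neuron-like cells Fabp7 moved with the markers of SGC-like cells. Its level was 204 CPM in naïve (126 cells), 380 CPM at day 7 (194 cells) and 339 CPM at day 14 (143 cells), and 201, 345 and 326 CPM in the 105, 55 and 117 cells with at least 10000 UMIs. The summed level of the 7 markers of the SGC gate in the deeper cells was 96.9, 178 and 181 CPM. Fabp7 stood at 208, 194 and 180 UMIs per 100 marker UMIs in these neuron-like cells and at 136, 138 and 130 in SGC-like cells. By kind of neuron, Fabp7 was lowest in cells scored as non-peptidergic, with 57.3, 199 and 155 CPM, and reached 399, 618 and 418 CPM in peptidergic and 263, 522 and 434 CPM in large-diameter cells. The part of attached or doublet glia in these values was not tested.

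Fabp5 had a wider distribution and was highest in neuron-like cells. These held 488 CPM in naïve (473 to 503), 433 CPM at day 7 (417 to 449) and 533 CPM at day 14 (521 to 546), and 487, 439 and 531 CPM in cells with at least 10000 UMIs, of which 99.0% to 100% had a UMI. Non-myelinating Schwann-like cells had 406, 381 and 311 CPM and SGC-like cells 288, 290 and 317 CPM, the former being higher in naïve and at day 7 and the latter at day 14. Myelinating Schwann-like cells had 82.0, 75.5 and 82.5 CPM. The free-RNA level of Fabp5, read from endothelial-like cells, was 6.81, 8.86 and 13.3 CPM, below each of these.

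Fabp5 was higher in SGC-like than in myelinating Schwann-like cells by 1.81 ± 0.12 (log2, SE, adjusted p = 1.01e-14, edgeR), and lower in myelinating than in non-myelinating Schwann-like cells by -1.78 ± 0.16 (log2, SE, adjusted p = 5.61e-11, edgeR). Between SGC-like and non-myelinating Schwann-like cells its difference of 0.03 ± 0.15 did not pass (log2, SE, adjusted p = 0.929, edgeR). Neuron-like cells had more Fabp5 than SGC-like cells by 0.79 ± 0.11 (log2, SE, adjusted p = 7.41e-08, edgeR), in a comparison added after seeing the data in which 76.9% of genes and 3 of 4 members were called. There Fabp3 was higher in neuron-like cells by 5.28 ± 0.27 and Fabp7 lower by -4.78 ± 0.19 (log2, SE, adjusted p = 2.99e-18 and 3.28e-21, edgeR).

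Across kinds of neuron, Fabp5 was highest in cells scored as large-diameter, with 722, 639 and 736 CPM, against 424, 371 and 494 CPM in non-peptidergic and 366, 330 and 514 CPM in peptidergic cells. Marked neurons, those with at least 1 UMI of Atf3 or Sprr1a, numbered 26, 37 and 69 of the deeper cells. They had 505, 437 and 586 Fabp5 CPM, and neurons with neither gene had 479, 442 and 441 CPM. The 26 naïve cells came from untreated mice, so the mark alone does not stand for nerve injury. Depth was not matched between marked and unmarked cells. At day 14 the ratio of marked to unmarked cells was 0.41 (log2, 0.34 to 0.49). In naïve and at day 7 its interval included 0, at 0.08 (-0.02 to 0.17) and -0.02 (-0.14 to 0.11). The difference between libraries in this ratio was not tested. Over all neuron-like cells no member reached 2-fold, where 5.87% of genes did at day 7 and 8.53% at day 14, and Fabp5 was 0.888 times naïve at day 7 (0.846 to 0.932) and 1.09 times at day 14 (1.05 to 1.14).

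**Figure D4:**
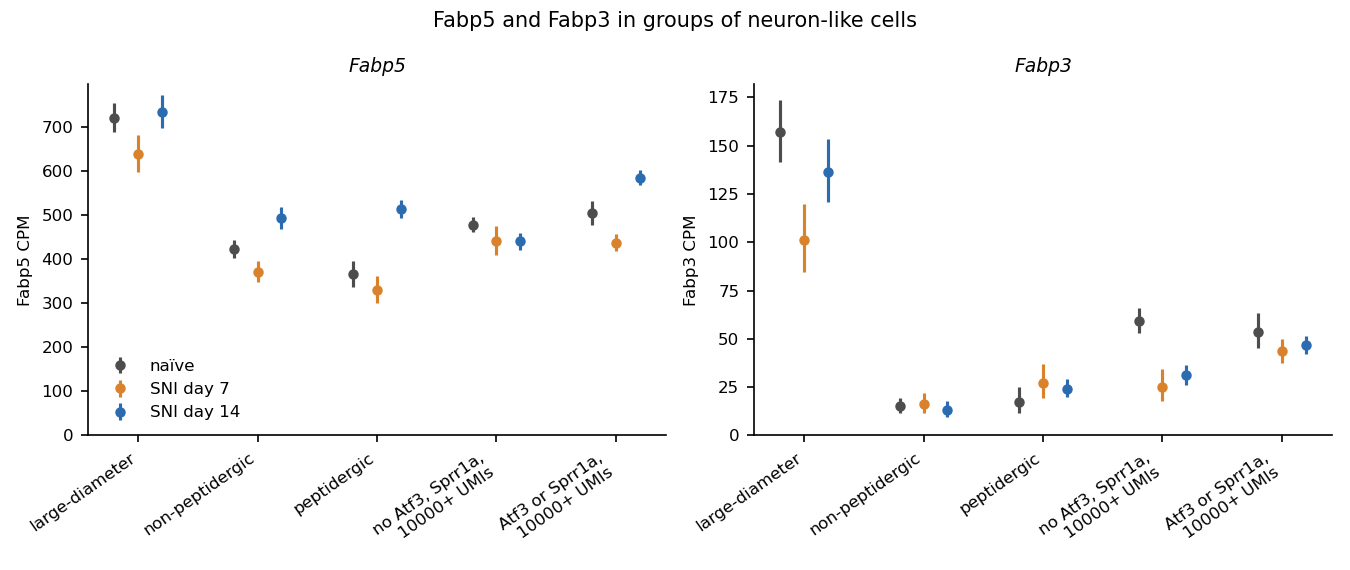
CPM of Fabp5 (left) and Fabp3 (right) in neuron-like cells scored as large-diameter, non-peptidergic or peptidergic, and in those with at least 10000 UMIs with or without a UMI of Atf3 or Sprr1a. Points are libraries and bars 95% intervals. Of the groups shown, cells scored as large-diameter were highest for both genes, at 639 to 736 CPM for Fabp5 and 101 to 157 CPM for Fabp3.

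Fabp3 was the member closest to being restricted to neuron-like cells. Its level there was 57.7 CPM in naïve (52.7 to 63.1), 37.5 CPM at day 7 (32.9 to 42.5) and 41.1 CPM at day 14 (37.6 to 44.8). The deeper cells gave 57.4, 38.9 and 40.8 CPM, with a UMI in 65.7%, 76.4% and 70.1%. Cells scored as large-diameter by Nefh, Pvalb, Ntrk3, Ntrk2 and Spp1 had 157, 101 and 136 CPM. Non-peptidergic cells had 15.1, 16.3 and 13.3 CPM and peptidergic cells 17.5, 26.9 and 24.2 CPM, so the groups of neurons did not overlap with the large-diameter cells in any library. The day 7 subgroups include shallow cells. A cluster led by Th, Fam19a4 and Rarres1 (61 neuron cells) held 667 of the 1348 Fabp3 UMIs of all cells. It had 133 Fabp3 CPM and 685 Fabp5 CPM over the libraries together. In the neuron clusters led by Gap43 and by Mrgprd, Fabp3 was at 34.3 and 15.8 CPM and Fabp5 at 451 and 458 CPM. The overlap of the Th cluster with the cells scored as large-diameter was not counted. Cell size was not measured, so large-diameter names the marker score alone.

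The ratio of Fabp3 to naïve in neuron-like cells was -0.62 at day 7 (log2, -0.85 to -0.40) and -0.49 at day 14 (-0.67 to -0.31). With each cell weighted equally it was -1.62 and 0.0031. Large-diameter cells made up 35, 28 and 23 of the 126, 194 and 143 neuron-like cells, and the part of this mix in the ratio was not tested. Neurons marked by Atf3 or Sprr1a, with at least 10000 UMIs, had 53.7, 43.6 and 46.6 CPM, and unmarked ones 59.2, 25.2 and 31.2 CPM. Among unmarked neurons the 2 injury libraries were thus below naïve and their intervals did not overlap with it.

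Outside neurons Fabp3 was near the floor, at 0.907 to 1.36 CPM in SGC-like cells and 1.85 to 3.07 CPM in myelinating Schwann-like cells. It was lower in SGC-like than in myelinating Schwann-like cells by -1.25 ± 0.44 (log2, SE, adjusted p = 0.0176, edgeR), on 14 and 40 UMIs, a call that the other tool run did not make (adjusted p = 0.0671, DESeq2). Mural-like cells had 7.47, 6.49 and 15.2 CPM on 3, 3 and 11 UMIs and were above endothelial-like cells, where Fabp3 was lower by -2.77 ± 0.59 (log2, SE, adjusted p = 0.000189, edgeR) and the only member called among 41.3% of genes. That call was lost without the day 14 library (adjusted p = 0.0967, edgeR). Of the last 400 bases of the Fabp3 transcript, 16.5% of 50-base words also occur in Fabp3-ps1, which is not among the counted genes, or in Zcchc17, which overlaps Fabp3 on the opposite strand.

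Fabp4 was found in 21 cells. Endothelial-like cells had 52 UMIs in 6 of 297 cells in naïve, 75 UMIs in 3 of 207 cells at day 7 and 9 UMIs in 2 of 327 cells at day 14. These are 29.5, 47.5 and 3.32 CPM, but 71 of the 75 UMIs at day 7 came from 1 cell and 24 of the 52 in naïve from another. The share of endothelial-like cells with a Fabp4 UMI was 2.02% (exact binomial interval 0.745 to 4.35%), 1.45% (0.300 to 4.18%) and 0.612% (0.0742 to 2.19%), and these intervals overlap.

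The endothelial Fabp4 UMIs were spread over 3 clusters. A cluster of 28 cells led by Plvap, which marks fenestrated and venous endothelium, with Clec14a, Mgp, Bmp4 and Vwf, held 26 of the 63 Fabp4 UMIs of naïve, 74 of the 78 of day 7 and 9 of the 19 of day 14. Its levels of 497, 2956 and 193 CPM rest on 4, 2 and 2 cells, and the day 7 value on the cell with 71 UMIs. An endothelial cluster of 744 cells led by Slco1a4, Ly6c1 and Flt1 had 25 UMIs, 24 of them in 1 naïve cell, and a smaller cluster of 63 cells had 2. The 2 cells with the most Fabp4 also had 9 UMIs each of Cd36, the fatty acid translocase. They had 3 and 4 UMIs of Gpihbp1, the capillary anchor of lipoprotein lipase. The other endothelial-like Fabp4 cells, among them those with 16, 7, 5 and 4 Fabp4 UMIs, had 0 UMIs of both genes. No Fabp4 cell had a UMI of the adipocyte gene Adipoq. Outside the endothelium 1 mural-like cell of naïve had 11 Fabp4 UMIs and 1 macrophage-like cell of day 14 had 5, and the other 8 cells outside it had 1 UMI each. In neuron-like cells Fabp4 had 0 UMIs, which allows up to 0.237 to 0.463 CPM at 3 counts per library.

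Fabp4 passed the 2-fold mark in endothelial-like cells at day 14, at -3.15 (log2, -4.36 to -2.12) on 52 and 9 UMIs, where 4.47% of genes did. At day 7, where 3.22% of genes passed 2-fold, it did not, at 0.69 (log2, 0.16 to 1.22). Without the filter on cells the day 14 sum was 36 UMIs and the ratio -1.18. Between classes Fabp4 was higher in endothelial-like than in macrophage-like cells by 2.46 ± 0.83 (log2, SE, adjusted p = 0.0156, edgeR), in 2 of 3 libraries, with 3 of 4 members called where 46.9% of genes were called, and the call was lost without the day 7 library (adjusted p = 0.818, edgeR) and with DESeq2 (adjusted p = 0.345). At day 14 macrophage-like cells had 7 UMIs and 6.58 CPM against 3.32 CPM in endothelial-like cells, and they had 0 UMIs in naïve and at day 7. Over mural-like cells its difference of 1.40 ± 0.70 did not pass (log2, SE, adjusted p = 0.118, edgeR).

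**Figure D5:**
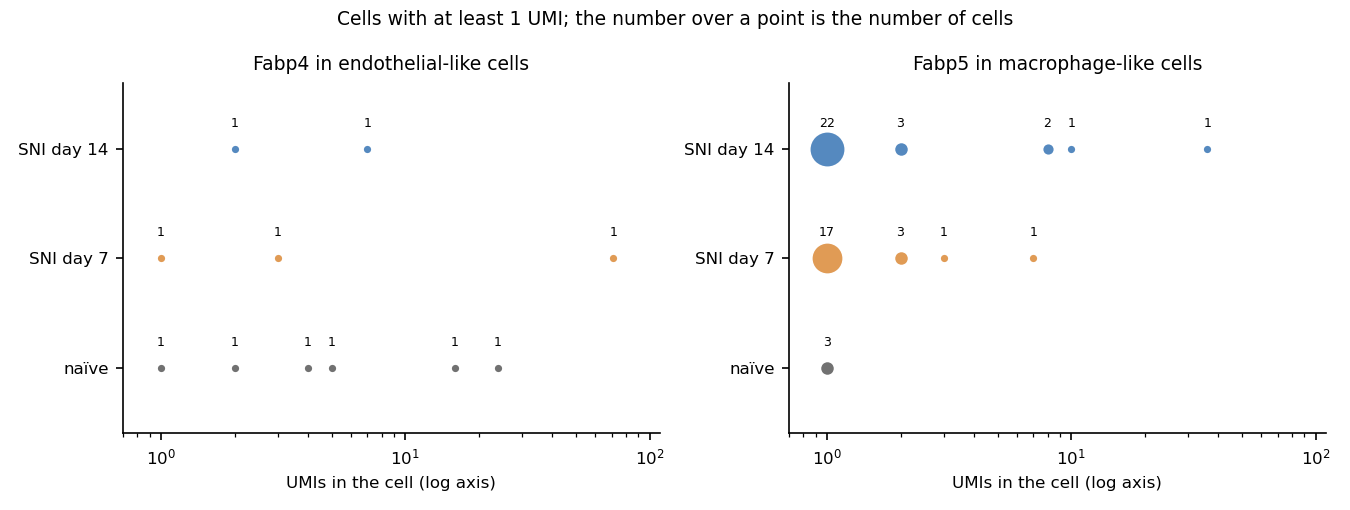
Cells with at least 1 UMI of Fabp4 among endothelial-like cells (left) and of Fabp5 among macrophage-like cells (right), by UMIs in the cell (log axis) and library; point area and the number above it give the number of cells. Single cells with 71 and 24 Fabp4 UMIs and with 36 Fabp5 UMIs stand far from the rest.

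In macrophage-like cells Fabp5 was 16.9, 31.6 and 84.6 CPM in naïve, day 7 and day 14, on 3, 33 and 90 UMIs. Barcodes with under 500 genes had 32.9, 38.9 and 39.9 Fabp5 CPM, and naïve mural-like and fibroblast-like cells 22.4 and 22.1 CPM. The naïve and day 7 values of macrophage-like cells were thus no higher than in these barcodes. A Fabp5 UMI was present in 3 of 68, 22 of 213 and 29 of 255 macrophage-like cells, or 4.41%, 10.3% and 11.4%. At day 14, 4 cells held 62 of the 90 UMIs, and 1 of them held 36. It was the only member past 2-fold at day 14 in this class, where 15.8% of genes were, and none was at day 7, where 13.4% were. With each cell counted once, the day 14 ratio was 0.69 (log2, -0.999 to 3.05) instead of 2.32 (0.73 to 4.63). Cells scored for Ccr2, Plac8, Ly6c2 and H2-Aa had 0, 13 and 57 Fabp5 UMIs in naïve, day 7 and day 14 (0, 37.5 and 144 CPM). Of the 57, 36 were in 1 cell. Cells scored for Mrc1, Cd163, Lyve1 and Folr2, genes of resident macrophages, had 36.2, 35.1 and 28.6 CPM. Macrophage-like cells exceeded endothelial-like cells in both Fabp5 and Fabp7, at -2.61 ± 0.30 and -0.85 ± 0.23 for the endothelial minus macrophage difference (log2, SE, adjusted p = 6.36e-09 and 0.0021, edgeR). A separate cluster of 105 cells led by Igkc, H2-Ab1, Cd74 and Cd209a, mostly without a class, had 241 of its 257 Fabp5 UMIs at day 14, 143 of them in 1 cell.

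Pmp2 was detected in myelinating Schwann-like cells alone, with 3 UMIs in 1306 cells of naïve, 13 in 1111 cells of day 7 and 7 in 1597 cells of day 14. These are 0.791 (0.163 to 2.31), 2.83 (1.51 to 4.84) and 1.08 (0.433 to 2.22) CPM, and the ratios to naïve of 1.84 (log2, -0.03 to 4.29) and 0.44 (-1.69 to 3.03) include 0. Of the 23 UMIs, 15 were in a cluster of 732 cells led by Spp1, Mfap5, Ogn and Lox, and 8 in the 3 other large clusters of myelinating Schwann-like cells. In SGC-like cells the count of 0 allows up to 0.657 to 0.907 CPM. The gene model limits this value. Exon 1 of Pmp2, at its 5′ end, is its own (183 bases), while exons 2 and 3 and 949 of the 950 bases of exon 4 also belong to Gm37389, a gene on the same strand that overlaps both Pmp2 and Fabp9. A read from the 3′ end therefore matches both genes, Gm37389 was listed at 0 UMIs, and a low Pmp2 count here does not show a low level of its mRNA. The 3′ ends of Fabp7, Fabp5 and Fabp4 shared no 50-base word with another gene.

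Genes whose level followed a member most closely were sought over the 24 sums of 8 classes and 3 libraries among 13607 genes. For Fabp7 they were Crabp1 (Pearson r = 0.969), which binds retinoic acid, Acsbg1 (0.956), an acyl-CoA synthetase, and Shank2 (0.955). For Fabp5 they were Taf13 (0.962), Prkcq (0.929) and Bex4 (0.920), and for Fabp3 Ppp1r1a (0.920), Ccdc68 (0.906) and Rab6b (0.896). For Fabp4 and Pmp2, on 159 and 23 UMIs, they were Gm17745 (0.858) and Gm20089 (0.936). The points of these correlations share libraries and depth.

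Of 11 further genes for intracellular lipid binding proteins, 10 were in the matrices. Fabp1, Fabp6 and Fabp9 had 0 UMIs and Fabp2 and Fabp12 had 1 each. Retinoid binders were present. Crabp1 was highest in SGC-like cells (26.7, 36.0 and 27.1 CPM). Rbp7 was nearly limited to endothelial-like cells, at 103, 36.7 and 38.4 CPM. Crabp2 was highest in fibroblast-like cells, at 88.6, 29.8 and 14.4 CPM. Crabp1 and Crabp2 were higher in SGC-like than in myelinating Schwann-like cells, by 6.83 ± 0.40 and 3.17 ± 0.63 (log2, SE, adjusted p = 3.94e-15 and 0.000103, edgeR).

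Of 23 genes for fatty acid uptake, activation, storage and the nuclear receptors, 21 were tested. Between SGC-like and myelinating Schwann-like cells 10 were higher and 4 lower, where 47.7% of all genes were called, with a median difference of 0.65 against -0.05 for all genes (log2). Acsbg1 was higher in SGC-like cells by 6.05 ± 0.18 and Acsl6 by 4.30 ± 0.32, while Acsl1, which activates long-chain fatty acids in many tissues, was lower by -5.63 ± 0.28 (log2, SE, adjusted p = 4.42e-24, 3.51e-13 and 4.09e-18, edgeR). Slc27a1, a fatty acid transport protein, was at 385, 363 and 420 CPM in SGC-like cells. Acsl1, Acsl4, Acsl5 and Acsl6 were higher in neuron-like than in SGC-like cells and Acsl3, Acsbg1 and Slc27a1 lower, among 6 higher and 11 lower, where 76.9% of all genes were called. In endothelial-like cells Mfsd2a, a carrier of lysolipids with docosahexaenoic acid, was at 931, 842 and 857 CPM, Gpihbp1 at 314, 121 and 120 CPM, and Lpl was lower than in mural-like cells by -7.44 ± 0.45 (log2, SE, adjusted p = 1.17e-15, edgeR). Cd36 was at 270, 144 and 140 CPM in macrophage-like cells.

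Between libraries, none of the 3 binding protein and 17 pathway genes with enough UMIs passed 2-fold in SGC-like cells at either day, where 2.29% and 3.15% of all genes did. In endothelial-like cells, with 3.22% and 4.47% of all genes past 2-fold, Rbp7 and Gpihbp1 were past 2-fold lower at both days. In macrophage-like cells, with 13.4% and 15.8% past 2-fold, Lpl was at 113, 44.0 and 26.3 CPM and past 2-fold lower at both days. In neuron-like cells, with 5.87% and 8.53% past 2-fold, Lpl was past 2-fold lower at both days.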

How the data were processed

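Single-cell 3′ libraries (10x, v3 chemistry) were made from dissociated L3 and L4 DRGs. The deposited matrices hold UMI counts per gene and barcode, made by the authors with Cell Ranger 3.0.2 on mm10 per the submitters' processing notes. The annotation release is not given in the sources used here. Barcodes below 500 genes or above a 20% mitochondrial share were dropped, as were doublets called per library by Scrublet (scanpy 1.11.5). Each cell took the class with the highest marker score if this was at least 0.15, rested on at least 2 markers and was at least 1.5 times the next. Clusters (Leiden, resolution 1) were formed without the family. CPM carry exact Poisson intervals, shares exact binomial ones, ratios of libraries conditional binomial ones, all 95%. Counts summed per class and library were tested between classes with edgeR 4.0.16 (quasi-likelihood, library as block, Benjamini-Hochberg adjustment at 0.05), with DESeq2 1.42.0 as alternative. Scripts were tested on simulated data. Since a library holds all its classes, its cells are paired between classes. A ratio between libraries was counted as past 2-fold only for genes with at least 20 UMIs in the pair. Cells of at least 10000 UMIs, counting each cell once, Fabp5 in macrophage-like cells and neuron-like against SGC-like cells were added after seeing the data. The genes, lists and markers were chosen with earlier results of these data known. Named genes are the 5 members, genes of both lists with the highest level or at least 2-fold, and the 3 genes most correlated with each member. Positions are from GENCODE vM21, which held 31011 of 31053 gene identifiers. Results that need certain genes are not reported here.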

Additional observations from a re-analysis of the deposited data

How the results depend on the processing

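Of the values for the comparisons of libraries and counts of called genes, 120 stayed within the limit set for them under the alternatives and 19 moved. For comparisons of libraries the limit was the spread of the main value. For counts of called genes it was a fixed fold difference from the main count, without an interval. Ratios are log2 over naïve. Under the tighter cell filter (1000 genes or more, mitochondrial share up to 10%), Fabp7 in SGC-like cells was 1.46 at day 7 and -3.39 at day 14, on 97, 11 and 6 cells classed anew within that set, Fabp5 in neuron-like cells -0.0598 and Fabp3 -0.36 at day 7, and Fabp4 had no UMI at day 14 and no value. Without a filter on cells, Fabp7 was 0.0924 at day 7 and Fabp4 in endothelial-like cells -1.18 at day 14. With the stricter gate Fabp7 was 0.27 and 0.0650 and Fabp5 in neuron-like cells -0.0810 at day 7. By Leiden clusters named by the markers, Fabp7 was 0.19 and -0.0900, on 491, 272 and 343 cells. This setting left out the Ednrb and Cdh19 cluster of 1121 cells, which got no class name, so it does not cover all SGC-like cells. Median-of-ratios scaling gave Fabp5 in neuron-like cells 0.0404 at day 14. As means over cells, Fabp5 in neuron-like cells was -0.34 and 0.20, Fabp3 -1.62 and 0.0031, and Fabp4 1.498 at day 7. Counting each cell once, Fabp4 was -0.84 at day 7 and Fabp5 in macrophage-like cells 0.69 at day 14. The cause was not tested.

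Between classes, differences that changed sign had not passed the test. The stricter gate gave -1.46 for Fabp4 (SGC minus myelinating Schwann), 0.34 for Fabp3 (SGC minus non-myelinating Schwann) and 0.22 for Fabp4 (neuron minus SGC). Fabp5 between SGC-like and non-myelinating Schwann-like cells was -0.13 with DESeq2, -0.0698 with its size factors and -0.0016 without the library block, the fit that ignores the pairing. Leaving out 1 library gave -1.71 to 1.61 for Fabp4 (SGC minus myelinating Schwann), -0.13 to 0.11 for Fabp5 and -0.90 to 4.47 for Fabp3 (SGC minus non-myelinating Schwann), -4.67 to 1.70 for Fabp4 (myelinating minus non-myelinating Schwann), -0.0495 to 0.18 for Fabp7 (endothelial minus mural) and -0.75 to 0.51 for Fabp3 (endothelial minus macrophage). No paired analysis was possible between conditions because each has 1 library. Low UMI counts limit Fabp4, Pmp2 and Fabp3 outside neurons.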

Other observations

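Cells without a class (310, 283 and 496 in naïve, day 7 and day 14) had 4099, 3378 and 3157 Fabp7 CPM and 267, 260 and 341 Fabp5 CPM. Cells with SGC as best class that fell just short of the gate numbered 76, 82 and 134.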
